A study of Arabidopsis thaliana with 4 samples.

Results

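The SAUR genes (SMALL AUXIN UP RNA) of Arabidopsis thaliana that lie outside the SAUR19 to SAUR24 and SAUR61 to SAUR68 clusters were followed in RNA from whole seedlings. They were taken by locus identifier from the deposited tables, and 59 such genes were found among 33544 genes listed. The family was selected on differences between the genotypes seen earlier in these same libraries, so its differences between genotypes are described here without a test and support nothing. The seedlings, 14 days old and grown in long days, were either Col-0, the wild type, or ect2, which carries a T-DNA insertion in ECT2 in that background. Each genotype had 2 libraries. ECT2 encodes a reader protein for N6-methyladenosine in RNA. The labels give a single mutant genotype, and none ties the replicates to separate plantings, so the spread between libraries may be technical. ECT2 itself (AT3G13460) averaged 107 ± 42.8 FPKM (fragments scaled to transcript length and library size) in the wild type and 8.82 ± 0.35 FPKM in the mutant (SD over 2 libraries), so the libraries matched their labels at the targeted gene.

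SAUR genes encode small plant proteins, and many of their transcripts are short-lived and accumulate quickly after auxin is given. In the acid growth model, SAUR proteins bind and inhibit clade D protein phosphatases of type 2C. These phosphatases otherwise remove an activating phosphate from the proton pumps of the plasma membrane, so SAUR proteins favour acidification of the cell wall and expansion of the cell. Other members are induced by brassinosteroid, warmth, light or shade, and a few act in senescence or in the apical hook. Different members are therefore expressed in different organs of a seedling.

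Library depth is not given, and the size of the lowest values places it between 0.979 and 1.46 times that of Col-0 replicate 2. Col-0 replicate 1 stood apart in the sums of several gene lists. Its 9 seed storage and oil body genes summed to 294 FPKM, beside 6.87 to 10.8 FPKM in the other 3 libraries, where 4 of the 9 were at 0 in Col-0 replicate 2 and 1 in ect2 replicate 1. Its 6 sugar-starvation genes summed to 192 FPKM, beside 1901 to 3297 FPKM elsewhere. Its 6 touch-induced genes summed to 327 FPKM, beside 1250 to 2804 FPKM elsewhere. These 6 genes had medians of 51.7 and 357 FPKM in the wild type and 41.6 and 186 FPKM in the mutant. Replicate 1 was thus the lower library in both genotypes. The 9 root markers summed to 151 and 175 FPKM in the wild type, against 150 and 152 FPKM in ect2, and the 6 markers of green shoot tissue to 41590 and 41050 FPKM in the wild type, against 34480 and 44070 FPKM in ect2. No root or shoot marker was at 0 in any library. What part the state of Col-0 replicate 1 has in the SAUR values was not tested, and differences are therefore also given against each Col-0 library alone. In such whole seedlings, more cells of one type and more RNA per cell cannot be told apart.

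The 59 genes ranged from values of 0 to high expression. If the values are FPKM, as inferred here, they are scaled to transcript length and levels can be compared between genes. The mean over the 4 libraries was 10 FPKM or more for 23 genes, from 1 to 10 FPKM for 25 genes and below 1 FPKM for 11 genes, with a median of 6.43 FPKM. The 5 most abundant genes, SAUR14, SAUR78, SAUR50, SAUR16 and SAUR6, held 46.2% of the summed level. SAUR2 (AT4G34780), SAUR11 (AT5G66260), SAUR39 (AT3G43120) and SAUR43 (AT5G42410) were listed at 0 in all 4 libraries. SAUR17 (AT4G09530), which acts in the apical hook of dark-grown seedlings, was listed at 0.624 and 0.925 FPKM in the wild type, while both mutant libraries had 0. The other members that missed the filter, SAUR34, SAUR38, SAUR40, SAUR47 and SAUR70, did not exceed 0.647 FPKM in any library.

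**Figure D1:**
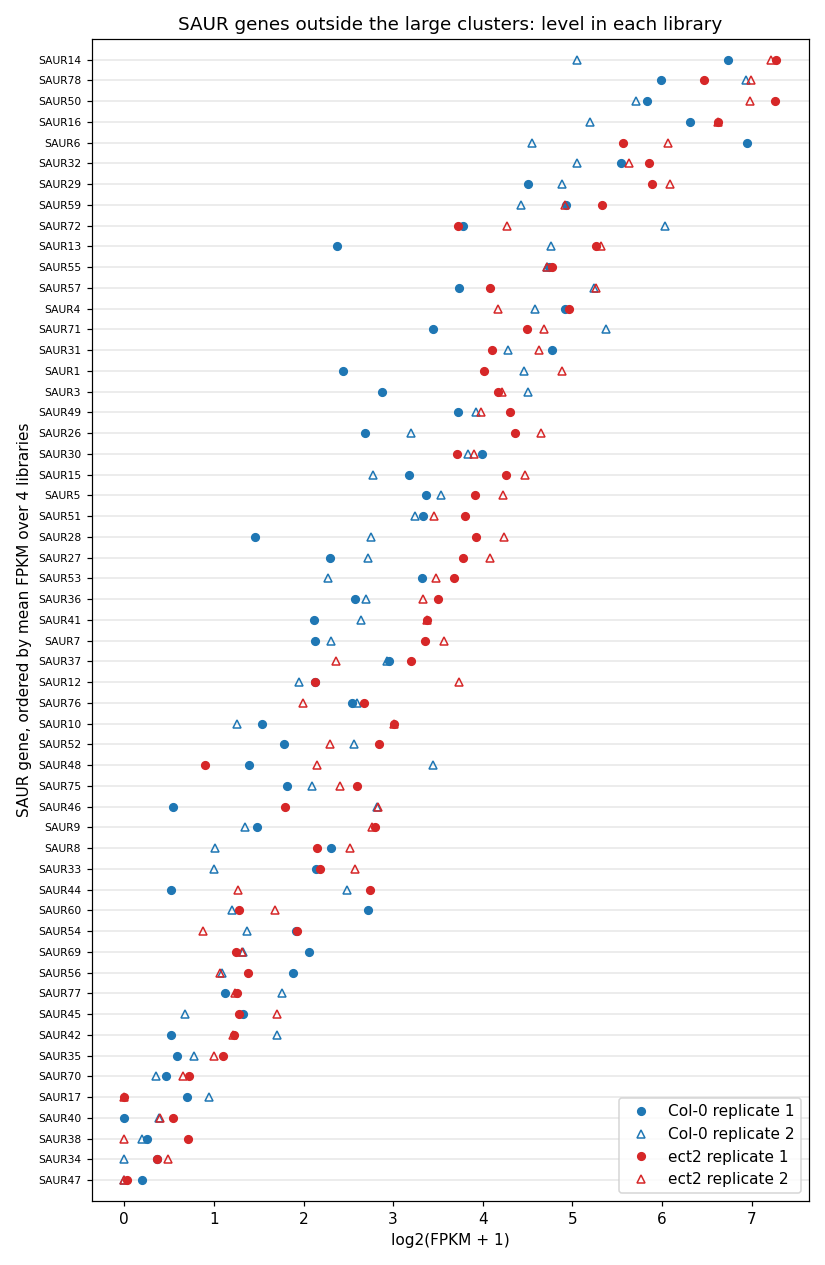
Level of each of the 55 SAUR genes with a value above 0, as log2(FPKM + 1), in the 2 Col-0 libraries (blue) and the 2 ect2 libraries (red), ordered by mean FPKM. Circles are replicate 1 and triangles replicate 2, and SAUR14 stands at the top and SAUR47 at the bottom.

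Of the 59 genes, 49 reached 1 FPKM in at least 2 libraries and entered the limma fit over 19308 genes. One of them, SAUR35, passed only through ect2. No member was called in either direction at an adjusted p below 0.05, where 0.0259% of all genes tested were called. At an unadjusted p below 0.05 limma gave 12 of the 49 and 938 of the 19308. With Col-0 replicate 2 left out, 7 members and 520 genes in all were called. Both ect2 libraries lay above both Col-0 libraries for 23 of the 49, beside 17.5% of all genes tested, and below for 1 of the 49, beside 20.2% of all genes tested. For the remaining 25 the genotypes overlapped. The members had a positive difference in 37 and a negative one in 12, with a median of 0.49 on the log2(FPKM + 1) scale, beside -0.0096 for all genes tested. These shares come from the contrast on which the family was picked, and nothing is read from them. Among all 59 genes, low ones included, ect2 lay above for 26, below for 2, and the genotypes overlapped for 27, with the other 4 at 0 throughout. The summed level of the 59 was 791 and 773 FPKM in the wild type and 1119 and 1189 FPKM in the mutant.

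Of the 59 genes, 22 sit in 6 groups of neighbours, and the rest lie alone. A group was defined as members within 10 kb of each other or next to each other in the RefSeq annotation of TAIR10.1. Within the groups, 18 of 20 tested members had a positive difference and 14 lay above Col-0 in both ect2 libraries. Among members that lie alone, 19 of 29 tested had a positive difference and 9 lay above. Of all 19308 genes tested, 9427 had a positive difference and 17.5% lay above. The median difference was 0.95 in the groups and 0.27 outside them on the log2(FPKM + 1) scale. Neighbours with similar sequences can share reads, so the 20 are not independent of each other. These values too come from the contrast on which the family was picked, and nothing is read from them.

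**Figure D2:**
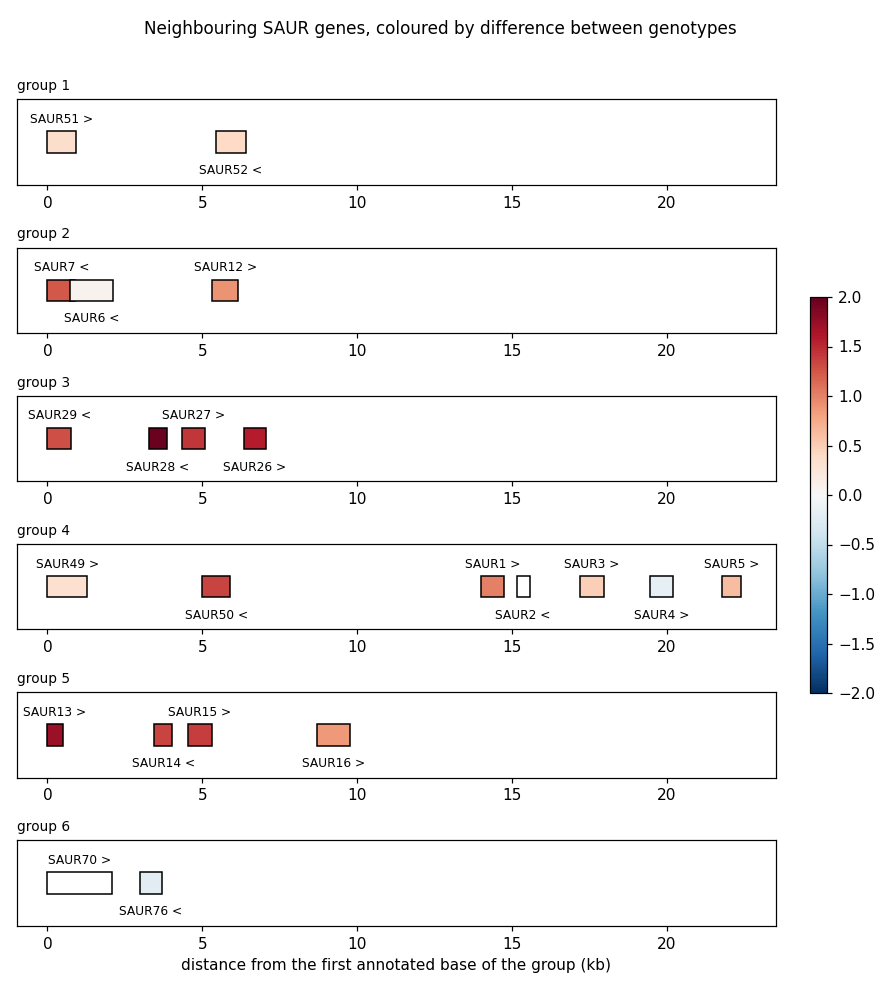
The 6 groups of neighbouring SAUR genes drawn to scale, with distance in kb from the first annotated base of each group; boxes are annotated genes, and > and < give the strand. Colour is the difference between genotypes, ect2 minus Col-0, on the log2(FPKM + 1) scale, and white boxes (SAUR2 and SAUR70) were not tested; all 4 genes of group 3 and all 4 of group 5 are on the positive side.

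The group on chromosome 3 holds SAUR29, SAUR28, SAUR27 and SAUR26 within 7.1 kb (976715 to 983768 of TAIR10.1). Variation in SAUR26 to SAUR28 is known to affect growth of the rosette with temperature. Their coding sequences are 78.9% to 86.3% identical to each other at the base level. The 250 bases before the annotated start of each gene are shown because these 4 genes had the same direction in every pairing of libraries. They read 5′ to 3′ on the strand of the gene and come from RefSeq's TAIR10.1. Capitals mark CACATG, or its reverse complement CATGTG, and TGTCGG, or CCGACA on the other strand.
SAUR29, chr3:977475-977724, minus strand: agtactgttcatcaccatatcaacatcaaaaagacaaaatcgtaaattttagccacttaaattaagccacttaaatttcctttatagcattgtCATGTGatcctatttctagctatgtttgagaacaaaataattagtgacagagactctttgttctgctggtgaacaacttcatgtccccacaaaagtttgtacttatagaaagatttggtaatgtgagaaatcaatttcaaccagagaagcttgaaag
SAUR28, chr3:980563-980812, minus strand: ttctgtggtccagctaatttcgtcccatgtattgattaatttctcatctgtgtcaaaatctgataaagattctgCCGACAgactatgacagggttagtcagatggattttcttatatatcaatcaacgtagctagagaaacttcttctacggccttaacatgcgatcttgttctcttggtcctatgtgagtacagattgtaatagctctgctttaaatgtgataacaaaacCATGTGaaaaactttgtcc
SAUR27, chr3:980822-981071, plus strand: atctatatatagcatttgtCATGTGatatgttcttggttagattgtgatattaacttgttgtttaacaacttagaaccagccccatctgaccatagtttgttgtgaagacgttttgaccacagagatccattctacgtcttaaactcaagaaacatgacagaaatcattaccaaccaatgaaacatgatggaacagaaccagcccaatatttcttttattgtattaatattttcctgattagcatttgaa
SAUR26, chr3:982807-983056, plus strand: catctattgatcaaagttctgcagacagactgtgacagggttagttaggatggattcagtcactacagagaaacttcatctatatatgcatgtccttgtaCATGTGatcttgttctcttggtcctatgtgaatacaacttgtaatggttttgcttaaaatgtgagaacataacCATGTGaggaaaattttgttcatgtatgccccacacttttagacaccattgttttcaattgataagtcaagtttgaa

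Each of these 4 windows held CACATG on at least one strand. SAUR29 (AT3G03820) was the most abundant of the group, at 21.7 and 28.6 FPKM in the wild type, against 58.2 and 66.9 FPKM in the mutant. SAUR26 (AT3G03850) was listed at 5.45 and 8.15 FPKM in the wild type, against 19.6 and 24.1 FPKM in the mutant. SAUR27 (AT3G03840) stood at 3.90 and 5.60 FPKM in the wild type, against 12.8 and 16.0 FPKM in the mutant. In all 4 libraries SAUR29 stood highest and SAUR26 next. SAUR28 (AT3G03830) had the lowest mean of the group in the wild type, at 1.74 and 5.72 FPKM, and exceeded SAUR27 in both mutant libraries, at 14.1 and 17.9 FPKM. It also slightly exceeded SAUR27 in Col-0 replicate 2, so its lower wild-type mean rested on Col-0 replicate 1. Both ect2 libraries lay above both Col-0 libraries for every gene of the group. The ratio of the means of ect2 and Col-0 was 2.48 for SAUR29, 3.02 for SAUR27, 3.21 for SAUR26 and 4.29 for SAUR28. On the log2(FPKM + 1) scale the differences were 1.29 ± 0.25, 1.43 ± 0.26, 1.57 ± 0.27 and 1.98 ± 0.46 (SE) in the same order. Against Col-0 replicate 2 alone they were 1.10, 1.21, 1.31 and 1.33, and against replicate 1 alone 1.48, 1.64, 1.82 and 2.62. SE here and below is limma's moderated SE, drawn toward the spread of genes of similar level, not taken from the gene's own libraries alone.

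A group on chromosome 4 (18121526 to 18131284) holds SAUR13, SAUR14, SAUR15 and SAUR16 within 9.8 kb. SAUR15, also called SAUR-AC1, is widely used as an early auxin response gene, and SAUR16 takes part in the opening of cotyledons in light. SAUR13 and SAUR15 are shown because, of this group, their windows hold CACATG more than once.
SAUR13, chr4:18121276-18121525, plus strand: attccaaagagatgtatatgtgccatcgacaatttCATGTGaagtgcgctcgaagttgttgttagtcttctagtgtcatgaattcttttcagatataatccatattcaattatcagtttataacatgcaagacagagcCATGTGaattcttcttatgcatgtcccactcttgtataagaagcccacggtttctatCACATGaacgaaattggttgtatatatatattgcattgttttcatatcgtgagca
SAUR15, chr4:18125807-18126056, plus strand: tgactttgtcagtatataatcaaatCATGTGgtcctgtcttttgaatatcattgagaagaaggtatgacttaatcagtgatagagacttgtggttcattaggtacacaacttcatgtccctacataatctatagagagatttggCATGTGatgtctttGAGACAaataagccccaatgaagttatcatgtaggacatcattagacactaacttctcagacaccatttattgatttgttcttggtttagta

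In SAUR15 the capitals also mark GAGACA, the reverse complement of TGTCTC, an element bound by auxin response factors. SAUR15 (AT4G38850) was listed at 8.03 and 5.84 FPKM in the wild type, against 18.1 and 21.2 FPKM in the mutant, a ratio of means of 2.83 and a difference of 1.39 ± 0.25 (SE) on the log2(FPKM + 1) scale. Its difference was 1.19 against Col-0 replicate 1 and 1.59 against replicate 2, so it was of similar size against both. The other 3 genes lay above Col-0 in both ect2 libraries too, but their Col-0 libraries were far apart. SAUR13 (AT4G38825) differed between its wild-type libraries, with 4.17 FPKM in replicate 1 against 26.2 FPKM in replicate 2, and had 37.4 and 38.8 FPKM in the mutant. SAUR14 (AT4G38840), the most abundant gene of all 59, went the other way, with 106 FPKM in wild-type replicate 1, 32.1 FPKM in replicate 2, and 153 and 147 FPKM in the mutant. SAUR16 (AT4G38860) followed SAUR14, at 78.3 and 35.7 FPKM in Col-0, with 97.57 and 97.59 FPKM in ect2. Against Col-0 replicate 1 alone the differences were 2.92, 0.50 and 0.31 for SAUR13, SAUR14 and SAUR16, and against replicate 2 alone 0.52, 2.19 and 1.43. The size of each therefore depended strongly on which Col-0 library was used. The coding sequences of this group are 56.5% to 71.6% identical. SAUR13 also overlaps AT4G38820 on the opposite strand by 433 bases, and that gene was listed at 0 in all 4 libraries.

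The largest group, on chromosome 4 from 16577180 to 16599568, holds SAUR49, SAUR50, SAUR1, SAUR2, SAUR3, SAUR4 and SAUR5 over 22.4 kb. SAUR50 (AT4G34760), which promotes the opening of cotyledons in light, was listed at 56.1 and 51.2 FPKM in the wild type, against 152 and 126 FPKM in the mutant. Its difference of 1.35 ± 0.23 (SE, log2(FPKM + 1)) was 1.29 and 1.42 against the single Col-0 libraries. SAUR5 (AT4G34810) was listed at 9.28 and 10.6 FPKM in the wild type, against 14.1 and 17.8 FPKM in the mutant, and SAUR49 (AT4G34750) at 12.2 and 14.2 FPKM and at 18.8 and 14.8 FPKM. These 3 genes lay above Col-0 in both ect2 libraries. SAUR1 (AT4G34770) was listed at 4.42 and 21.0 FPKM in the wild type, against 15.1 and 28.6 FPKM in the mutant. SAUR3 (AT4G34790) had 6.36 and 21.7 FPKM in the wild type and 17.0 and 17.6 FPKM in the mutant. SAUR4 (AT4G34800) stood at 29.2 and 22.9 FPKM in the wild type, against 30.1 and 17.0 FPKM in the mutant. The genotypes overlapped for these 3. The sign for SAUR3 turned with the Col-0 library, from 1.31 against replicate 1 to -0.31 against replicate 2, and SAUR1 went from 2.01 to -0.0066. SAUR2, between SAUR1 and SAUR3, was the gene listed at 0 throughout.

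On chromosome 2 (9083906 to 9090052), SAUR7 (AT2G21200) was listed at 3.38 and 3.95 FPKM in the wild type, against 9.23 and 10.8 FPKM in the mutant. SAUR6 (AT2G21210), on the same strand and overlapping it by 176 bases, had the widest spread in Col-0 in FPKM among the 59, at 122 and 22.4 FPKM, beside 46.2 and 66.0 FPKM in ect2. SAUR12 (AT2G21220) was listed at 3.37 and 2.87 FPKM in the wild type, against 3.38 and 12.3 FPKM in the mutant. Its 2 ect2 libraries were further apart than the genotypes, and the lower one exceeded Col-0 replicate 1 only in the third digit. Reads in the overlap of SAUR6 and SAUR7 cannot be assigned to one of them from these tables. The group of SAUR51 and SAUR52 on chromosome 1 and that of SAUR70 and SAUR76 on chromosome 5 showed smaller differences. SAUR51 (AT1G75580) was listed at 9.05 and 8.48 FPKM in the wild type, against 13.0 and 9.98 FPKM in the mutant, and SAUR52 (AT1G75590) at 2.43 and 4.90 FPKM and at 6.15 and 3.89 FPKM. SAUR76 (AT5G20820) stood at 4.82 and 5.06 FPKM in the wild type, against 5.39 and 2.998 FPKM in the mutant, so its ect2 libraries fell on either side of Col-0.

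Among genes that lie alone, SAUR10 and SAUR9 had the largest differences, and their coding sequences are 75.4% identical to each other. SAUR10 (AT2G18010), known to act in the growth of branches, was listed at 1.90 and 1.39 FPKM in the wild type, against 7.03 and 7.06 FPKM in the mutant. SAUR9 (AT4G36110), whose protein inhibits clade D phosphatases, was listed at 1.79 and 1.54 FPKM in the wild type, against 5.97 and 5.79 FPKM in the mutant. Replicates lay close together in both genotypes for this pair. The ratios of means were 4.28 and 3.53, with differences of 1.61 ± 0.23 and 1.37 ± 0.22 (SE, log2(FPKM + 1)). SAUR41 (AT1G16510), a gene of cell expansion, was listed at 3.35 and 5.25 FPKM in the wild type, against 9.43 and 9.42 FPKM in the mutant. SAUR36 (AT2G45210), also named SAG201 for its role in leaf senescence, was listed at 4.94 and 5.46 FPKM in the wild type, against 10.3 and 9.09 FPKM in the mutant. Neither overlapped between the genotypes. SAUR32 (AT2G46690), which acts in the apical hook, was listed at 45.5 and 32.3 FPKM in the wild type, against 56.9 and 48.5 FPKM in the mutant, a ratio of 1.35. SAUR53, SAUR33, SAUR75 and SAUR35 also lay above Col-0 in both ect2 libraries, with ratios of means of 1.71, 1.94, 1.62 and 1.76. The wild-type libraries were far apart for SAUR53, at 8.97 and 3.84 FPKM, and for SAUR33, at 3.40 and 0.996 FPKM. Against replicate 1 alone their differences were 0.26 and 0.24, and against replicate 2 alone 1.30 and 1.38, on the log2(FPKM + 1) scale. SAUR75 (AT5G27780) is 97% identical in its coding sequence to SAUR62 of the SAUR61 to SAUR68 cluster, so its value may hold reads of that gene.

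The ratio of means exceeded 2 with the libraries apart for 13 of the 49 tested members, beside 2.07% of all genes tested. They are the 4 genes of the chromosome 3 group, SAUR13, SAUR14 and SAUR15, SAUR50, SAUR7 and SAUR12, and SAUR9, SAUR10 and SAUR41. This count too comes from the contrast that led to the family.

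**Figure D3:**
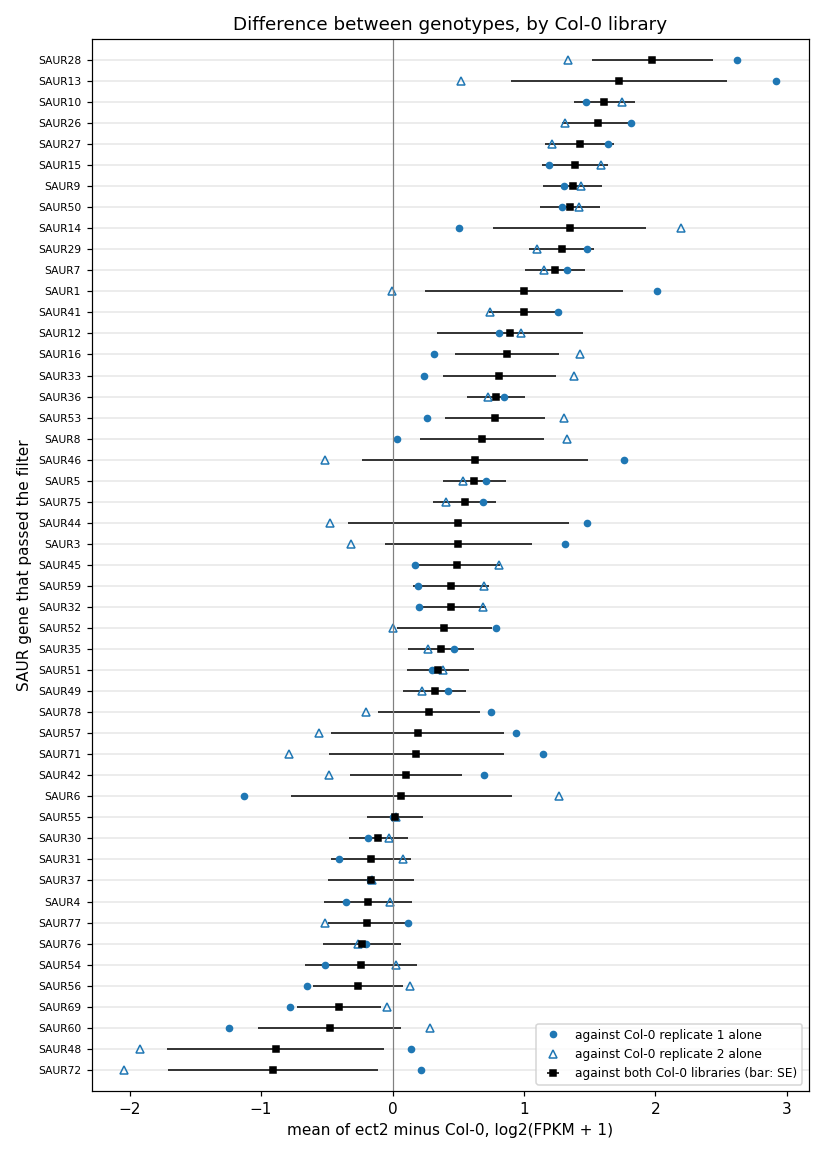
Difference of ect2 minus Col-0 on the log2(FPKM + 1) scale for the 49 tested SAUR genes, against both Col-0 libraries (black squares, bars are SE from limma), against Col-0 replicate 1 alone (filled circles) and against replicate 2 alone (open triangles). Circles and triangles lie on the same side of 0 for most genes, and for SAUR72, SAUR48, SAUR6 and SAUR71 they lie on opposite sides.

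At the other end, SAUR69 (AT5G10990) was the only tested member with both ect2 libraries below both Col-0 libraries, at 3.17 and 1.497 FPKM in the wild type, against 1.38 and 1.48 FPKM in the mutant. The margin to Col-0 replicate 2 was in the third digit. Its difference was -0.777 against Col-0 replicate 1 alone and -0.039 against replicate 2 alone. The largest negative differences belonged to SAUR72 and SAUR48, and both rested on Col-0 replicate 2. SAUR72 (AT3G12830) was listed at 12.7 and 64.5 FPKM in the wild type, against 12.2 and 18.2 FPKM in the mutant. SAUR48 (AT3G09870) stood at 1.61 and 9.92 FPKM in the wild type, against 0.867 and 3.45 FPKM in the mutant. Against Col-0 replicate 1 alone the differences were 0.22 and 0.14, and against replicate 2 alone -2.04 and -1.92. SAUR60 (AT1G20470) showed the reverse dependence, at 5.61 and 1.30 FPKM in the wild type, against 1.43 and 2.21 FPKM in the mutant. SAUR56, SAUR54 and SAUR77 had negative differences of -0.26, -0.24 and -0.20, each with overlapping genotypes. The sign turned with the Col-0 library for all 3, from -0.65, -0.51 and 0.12 against replicate 1 alone to 0.13, 0.03 and -0.51 against replicate 2 alone. SAUR37 (AT4G31320) was near its Col-0 level, at 6.74 and 6.65 FPKM in the wild type, against 8.20 and 4.13 FPKM in the mutant.

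Several abundant members hardly separated the genotypes. SAUR55 (AT5G50760) varied little, at 25.8 and 25.2 FPKM in the wild type, against 26.3 and 25.3 FPKM in the mutant. SAUR30 (AT5G53590) was listed at 14.9 and 13.2 FPKM in the wild type, against 12.1 and 13.9 FPKM in the mutant. SAUR31 (AT4G00880) stood at 26.3 and 18.5 FPKM in the wild type, against 16.2 and 23.7 FPKM in the mutant. All 3 overlapped between the genotypes. SAUR59 (AT3G60690) was listed at 29.5 and 20.5 FPKM in the wild type, against 39.4 and 29.1 FPKM in the mutant, so the genotypes just overlapped. SAUR78 (AT1G72430), whose protein interacts with ethylene receptors, stood at 62.4 and 121 FPKM in the wild type, against 87.9 and 127 FPKM in the mutant. SAUR57 (AT3G53250) had 12.3 and 36.7 FPKM in the wild type and 15.9 and 37.5 FPKM in the mutant. For both genes replicate 2 exceeded replicate 1 in each genotype by more than the genotypes differed. SAUR71 (AT1G56150) had 9.86 and 40.5 FPKM in Col-0, with both ect2 libraries between these values at 21.5 and 24.8 FPKM. The genotypes also overlapped for SAUR8, SAUR42, SAUR44, SAUR45 and SAUR46, which had means of 1.33 to 3.77 FPKM over the 4 libraries. SAUR44 (AT5G03310) had 0.438 and 4.59 FPKM in the wild type and 5.69 and 1.40 FPKM in the mutant. It overlaps ADK2 on the opposite strand by 483 bases. ADK2 had 109.5 and 83.0 FPKM in the wild type and 66.0 and 73.6 FPKM in the mutant. Reads of the pair cannot be told apart where strand was not counted. Genes on the opposite strand also overlap SAUR60 by 407 bases, SAUR31 by 516 bases, SAUR8 by 594 bases and SAUR47 by 104 bases. The same limit holds for them.

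The Col-0 libraries differed from each other more than the ect2 libraries did. For 23 of the 49 tested members (46.9%) the higher Col-0 library exceeded 2 times the lower one, beside 15.4% of all genes tested. In ect2 this held for 6 of the 49 (12.2%), beside 6.56% of all genes. The difference had the same positive sign against each Col-0 library for 28 members, the same negative sign for 5, and a sign that turned with the library for 16. No matching share over all genes is given. These signs come from the contrast on which the family was picked, and nothing is read from them. Neither Col-0 library was uniformly lower, since replicate 2 exceeded replicate 1 for 25 members and lay below it for 24.

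The members are compact genes. In the RefSeq annotation 54 of 59 have a single exon, beside 20.4% of all 27443 protein-coding genes, and the coding sequence measures 261 to 573 bases with a median of 366. CACATG, on either strand, was found in the 250-base windows of 18 of the 59 members (30.5%) and in 11.1% of all such windows. It is a sequence bound by PIF factors, and it was added to the search after the sequences and the expression values had been seen. The 18 included all 4 genes of the chromosome 3 group, SAUR13, SAUR14 and SAUR15, SAUR1, SAUR3, SAUR4 and SAUR5, and SAUR9. The others were SAUR6, SAUR8, SAUR11, SAUR42, SAUR51 and SAUR75, while SAUR10, SAUR16 and SAUR50 lacked CACATG. Many of the 18 are neighbours with similar coding sequences, so their windows may not be independent of each other. Whether CACATG goes with the difference between genotypes was not tested. The auxin response element TGTCTC was found in 2 members, SAUR7 and SAUR15 (3.39%, beside 10.9% of all windows), and TGTCGG in SAUR28 alone (1.69%, beside 4.16%). The G-box CACGTG was found in SAUR59 alone (1.69%, beside 6.49%), and the brassinosteroid element CGTGCG in SAUR46 and SAUR57 (3.39%, beside 1.57%). The windows end at the annotated start and say nothing of elements farther away. In the 3′ UTR, the URUAY motif (R is A or G, Y is C or U) reported for ECT2 was found for 51 of 58 members with an annotated 3′ UTR (87.9%), beside 81.9% of all genes. The median 3′ UTR was 285 bases in members and 247 bases in all genes, and no methylation or binding was measured here.

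The other SAUR genes and the rest of the acid growth pathway were read from the same fit, with lists drawn up when earlier results were known. No gene of these lists was called in either direction. The 6 genes from SAUR19 to SAUR24 summed to 124 and 159 FPKM in the wild type, against 450 and 478 FPKM in ect2, and the 8 genes from SAUR61 to SAUR68 to 94.3 and 89.9 FPKM and to 291 and 266 FPKM. All 14 lay above Col-0 in both ect2 libraries, beside 17.5% of all genes tested, and these clusters too were known from earlier results. SAUR68 passed the filter only through ect2, at 0.425 and 0.847 FPKM in the wild type, against 4.01 and 4.89 FPKM in the mutant. The 9 clade D phosphatase genes had 6 positive and 3 negative differences with a median of 0.24 on the log2(FPKM + 1) scale. Among them AT3G51370 was listed at 47.5 ± 0.2 FPKM in the wild type and 58.2 ± 4.3 FPKM in the mutant (SD, n = 2 each). APD7 (AT5G02760), named after its values had been seen, was listed at 17.3 ± 9.1 and 30.6 ± 7.2 FPKM. APD6 (AT4G38520) lay below Col-0 in both ect2 libraries, with a ratio of means of 0.909. The ratio was 1.16 for AT3G17090 and 0.827 for APD5 (AT4G33920), and the genotypes overlapped for both. Of the 9 genes, 4 lay above Col-0 in both ect2 libraries, 1 lay below and 4 overlapped. Of 11 proton pump genes of the plasma membrane 7 were tested, with a median of -0.056. AHA2 (AT4G30190), the main pump of roots, stood at 157 ± 45 FPKM in the wild type and 148 ± 2 FPKM in the mutant, and AHA1 (AT2G18960) at 121 ± 30 and 108 ± 6 FPKM. Both overlapped between the genotypes.

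Upstream of the SAUR genes, the 6 auxin receptor genes had a median difference of 0.25 and the 5 activating auxin response factors one of 0.0084. The receptor gene TIR1 (AT3G62980) was 54.6 ± 2.3 FPKM in the wild type and 67.1 ± 16.1 FPKM in the mutant, and ARF6 (AT1G30330) 12.7 ± 0.3 and 12.3 ± 1.7 FPKM (SD, n = 2 each). The 7 PIF and BZR factors, which act in growth under shade, warmth and brassinosteroid, had a median of 0.25. Their sum was 163 FPKM in Col-0 replicate 1, beside 278 to 314 FPKM elsewhere. PIF5 (AT3G59060) had 20.5 FPKM in wild-type replicate 1, 82.5 FPKM in replicate 2, and 71.0 and 76.9 FPKM in the mutant. PIF4 (AT2G43010) likewise stood at 21.3 and 51.7 FPKM in the wild type, against 58.9 and 49.5 FPKM in the mutant. For both factors Col-0 replicate 1 was the low library, and Col-0 replicate 2 lay among or above the ect2 libraries.

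**Figure D4:**
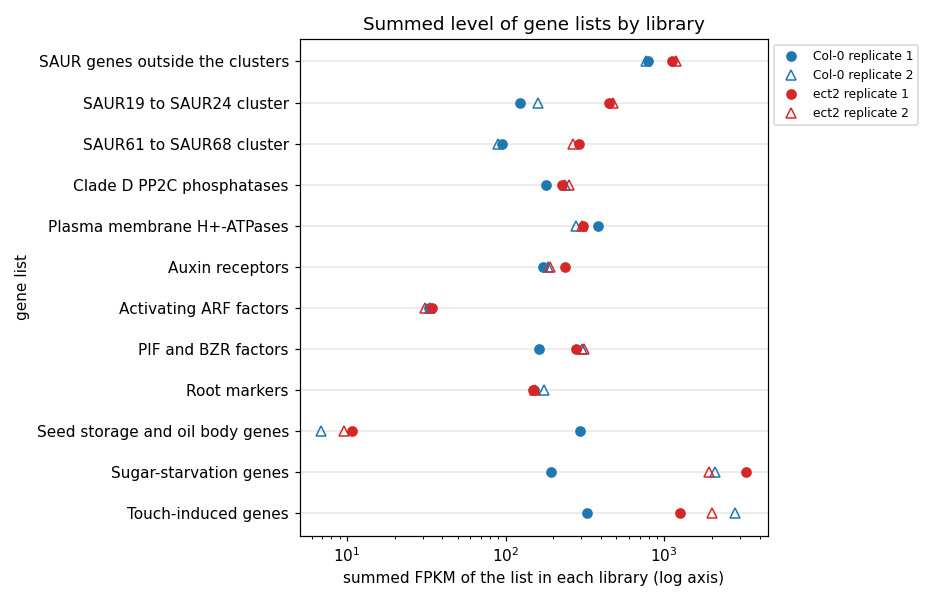
Summed FPKM of each gene list in each library on a log axis, with Col-0 in blue, ect2 in red, circles for replicate 1 and triangles for replicate 2. The sums of the SAUR lists and of the auxin receptors are higher in both ect2 libraries than in both Col-0 libraries. The SAUR lists were drawn up with earlier differences between these genotypes known, so their separation supports nothing. The sums of seed storage, sugar-starvation, touch-induced, and PIF and BZR genes set Col-0 replicate 1 apart from the other 3 libraries.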

How the data were processed

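mRNA of 4 seedling libraries was isolated on oligo(dT) beads and sequenced. The tools named in the submitters' processing notes are cutadapt for trimming and TopHat for alignment, on TAIR10, with no version. Values in the authors' deposited tables are treated as FPKM, a unit inferred from the header and from fractional values whose sums differ between libraries. No source used here names the quantifier, the annotation release, the strand setting or the scaling. Absolute read depth is unknown, so no counting error can be given, and relative depth was estimated from the lowest values.

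The filter kept 19308 genes with at least 1 FPKM in 2 or more libraries. limma (version 3.58.1, R version 4.3.3) was fitted to log2(FPKM + 1) with trend and robust options, all 4 libraries and no covariate, and its two-sided p-values were adjusted by Benjamini-Hochberg over all genes at a threshold of 0.05. This scale understates the change of low genes. The fit was tested on simulated data, with a shift larger than any SAUR difference here and the same spread for every gene. That test therefore does not cover differences of the size reported or the wider spread of some members. Positions, coding sequences and promoter windows came from RefSeq's TAIR10.1, where all 59 members were found by locus tag. Identity was counted on global alignments of coding bases. Motifs were searched on both strands of the 250 bases before each annotated start, and in 3′ UTRs on the transcribed strand.

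The members, lists and tests were chosen with earlier results of these data known. The rule named members with a mean of 10 FPKM or more, the 8 largest differences in each direction, the neighbours of these, ECT2, and up to 4 of the most abundant genes of each list. Other members and APD7 were named after their values had been seen. Alternatives were another pseudocount, other filters, TMM factors, equal library medians, no trend, a replicate block and leaving out each library.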

Additional observations from a re-analysis of the deposited data

How the results depend on the processing

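Over all genes, limma called 5 genes with all libraries and 0 to 520 with 1 library left out. The 520 arose on dropping Col-0 replicate 2, 11 on dropping Col-0 replicate 1, and 0 on dropping ect2 replicate 1 or 2, where 284 and 431 genes had an unadjusted p below 0.05. Without Col-0 replicate 2, the lone library is assumed to vary like the mutant pair, so no member is named from that fit. The members there had 39 positive and 10 negative differences, with a median of 0.503, beside 0.0118 for all genes tested. In every other setting 0 members were called. The median difference of the tested members, 0.49, was 0.668 with a pseudocount of 0.1 and 0.625 over the 34 members left by a minimum of 5 FPKM, and 0.395 over 55 members, 41 positive and 14 negative, with no filter. Leaving out a library, it ranged from 0.386 to 0.53, with 33 to 39 members on the positive side. TMM factors gave 0.493 and equal library medians 0.465. Of 37 named members, the sign changed for 9 without Col-0 replicate 1, for 4 without Col-0 replicate 2, for 2 without ect2 replicate 1, for 5 without ect2 replicate 2 and for 1 with equal medians, and for none under the other settings, where a minimum of 5 FPKM left 29 of the 37. No label says that replicate numbers pair the libraries. Same-numbered deviations had a correlation of 0.0138 over all genes and 0.177 over the 49 members. The replicate block called 6 genes and 0 members. In that limma fit 15 of the 49 members had an unadjusted p below 0.05, beside 916 of all 19308 genes tested. With 2 libraries per genotype and unknown depth, moderate differences cannot be separated from spread, and genes near 1 FPKM rest on few reads.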
